A study of Mus musculus with 6 samples.

Results

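The genes described here are 10 genes of the neutrophil granules and cytosol, taken by name from the 54532 Ensembl genes of the deposited tables. They fall into 4 primary granule genes (Mpo, Elane, Prtn3 and Ctsg) and 6 later ones (S100a8, S100a9, Ngp, Camp, Ltf and Lcn2). All 10 were found in the files and all 10 passed the filter on low counts, in every library through at least 1072 counts.

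Neutrophils build their granules in an order. Primary (azurophil) granules form first, at the promyelocyte stage, and hold myeloperoxidase and the serine proteases elastase, proteinase 3 and cathepsin G. Specific and gelatinase granules form later, at the myelocyte stage and after, and hold lactoferrin, lipocalin and cathelicidin. The calcium-binding proteins S100A8 and S100A9 fill the cytosol of maturing neutrophils. In mouse marrow the primary genes are also transcribed in granulocyte-monocyte progenitors, while the later genes belong to cells further along the lineage.

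RNA was measured in bone marrow LSK cells, the lineage-negative, Sca-1-positive and c-Kit-positive gate that holds blood stem cells and multipotent progenitors. All 6 libraries came from male mice labelled Phf6fl-R274X/Y, which carry on their X chromosome an allele of the PHD finger gene Phf6 meant to give the R274X stop codon after Cre recombination. The 3 floxed libraries had this allele without Cre, and the 3 R274X libraries had it together with Vav1-Cre, a recombinase driven by a promoter active in blood cells. Cre itself was present in every R274X library and in no floxed one, so an effect of Cre and one of the mutation cannot be told apart. Neither strain, age, treatment nor pooling of animals is stated in the labels. Whether each library is a separate mouse is not stated either, so the p-values reflect variation among 6 libraries that may be technical.

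Depth was 15406314 to 18106065 counts per library. Phf6 stood at 29.6 to 33.5 CPM (library-size-scaled counts, with TMM factors) in floxed and 8.29 to 10.3 CPM in R274X libraries. The gate markers Kit (84.5 to 172.7 CPM) and Ly6a (135.9 to 256.2 CPM), which encode c-Kit and Sca-1, were detected in all 6 libraries. So were genes that mark neutrophils outside this gate, with Ly6g at 40.0 to 99.4 CPM and Cxcr2 at 17.2 to 38.7 CPM. Immunoglobulin genes took 0.293% to 1.18% of the counts in floxed and 4.45% to 7.95% in R274X libraries. Of 14608 genes tested, 2621 (17.9%) differed between the groups at an edgeR adjusted p under 0.05, and 1152 (7.89%) were called as lower in the R274X libraries.

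The 4 primary granule genes had lower mean levels in the R274X libraries, by close to the same factor, but none passed the test. Mpo encodes myeloperoxidase, the heme enzyme that makes hypochlorous acid, and measured 1234, 1835 and 998 CPM in floxed replicates 1 to 3 and 661, 473 and 998 CPM in R274X replicates 1 to 3. Its means were 1355 ± 432 and 711 ± 266 CPM (SD, n = 3 each). The 2 lowest libraries were R274X ones and the 2 highest were floxed ones, with floxed replicate 3 and R274X replicate 3 level between them, so the groups touched. The log2 fold change of Mpo was -0.93 (SE 0.399, edgeR adjusted p = 0.205).

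Elane encodes neutrophil elastase. It measured 570.2, 1025 and 419 CPM in the floxed and 343, 197 and 501 CPM in the R274X libraries, a log2 fold change of -0.95 (SE 0.535, edgeR adjusted p = 0.315). Floxed replicate 2 stood well above the other 5 libraries, and R274X replicate 3 lay above floxed replicate 3. Of the 4 genes Elane varied most, with a 5.22-fold range from the lowest to the highest library.

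Prtn3 encodes proteinase 3. Its levels were 737, 1063 and 627 CPM in the floxed and 440.3, 267 and 584 CPM in the R274X libraries, with a log2 fold change of -0.91 (SE 0.387, edgeR adjusted p = 0.203). It was the only one of the 10 genes whose CPM values did not overlap between the groups, as did 18.3% of all genes tested in the same direction. In GENCODE release M21 Prtn3 overlaps Plppr3, a neighbour that was called as lower (log2 fold change -0.74, adjusted p = 0.0156), and since the handling of strand and of shared reads is not given, reads of the pair may not be fully separated.

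Ctsg encodes cathepsin G, a protease of broad specificity. It was the lowest of the 4, at 238, 307 and 175 CPM in the floxed and 129, 70.9 and 182 CPM in the R274X libraries, with a log2 fold change of -0.92 (SE 0.442, edgeR adjusted p = 0.251). The groups overlapped through floxed replicate 3 and R274X replicate 3, as for Mpo and Elane. In bulk RNA such as this, fewer cells of a type and less RNA per cell cannot be told apart.

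Read together, the median log2 fold change of the 4 primary genes was -0.92, against -0.02 over all genes tested. A value as low as that of Prtn3, the highest of the 4, was found for 383 genes (2.62% of those tested), of which 188 were called. The standard errors of the 4 genes, 0.387 to 0.535, stood against a median of 0.132 over all genes. With at least 1072 counts in every library, counting error was not what limited them: their levels differed 3.88-fold to 5.22-fold between the lowest and highest library. Their log2 fold changes lay between -0.99 and -0.90 under the 10 other tools, scalings, filters and pseudocounts tried, and no adjusted p fell under 0.0584, the value for Prtn3 without the robust option.

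The 6 later genes had nearly equal means in the groups and a wide spread within each. S100a9, which with S100a8 encodes the subunits of calprotectin, measured 8515, 5865 and 5177 CPM in the floxed and 6075, 3795 and 10215 CPM in the R274X libraries. R274X replicate 3 was the highest and R274X replicate 2 the lowest of all 6 libraries, so the R274X values enclosed the floxed ones. S100a8 measured 6496, 4279 and 3145 CPM against 4487, 2615 and 7106 CPM. The log2 fold changes were 0.04 for S100a9 (SE 0.455, edgeR adjusted p = 0.966) and 0.03 for S100a8 (SE 0.50, adjusted p = 0.977).

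Ngp and Camp encode a pair of related small proteins, neutrophilic granule protein and the cathelicidin whose cleaved end is an antimicrobial peptide. Ngp stood at 5709.7, 4251 and 3606 CPM in the floxed and 3906, 2934 and 7324 CPM in the R274X libraries. Camp stood at 3280.3, 2269 and 2041 CPM against 2330.2, 1500.4 and 4374 CPM. Their log2 fold changes of 0.06 (Ngp, SE 0.432) and 0.11 (Camp, SE 0.486) were far inside their standard errors, with edgeR adjusted p of 0.941 and 0.903.

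Ltf and Lcn2 encode 2 proteins that withhold iron from bacteria, lactoferrin and lipocalin 2. Ltf measured 2369.7, 1804 and 1404 CPM in the floxed and 1506, 1164 and 2860.1 CPM in the R274X libraries (log2 fold change -0.01, SE 0.439, edgeR adjusted p = 0.989). Lcn2 measured 2056, 1460.2 and 1194 CPM against 1345, 961 and 2585 CPM (log2 fold change 0.05, SE 0.473, adjusted p = 0.953). In all 6 later genes R274X replicate 2 was the lowest library, floxed replicate 3 the next, floxed replicate 1 the second highest and R274X replicate 3 the highest.

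**Figure D1:**
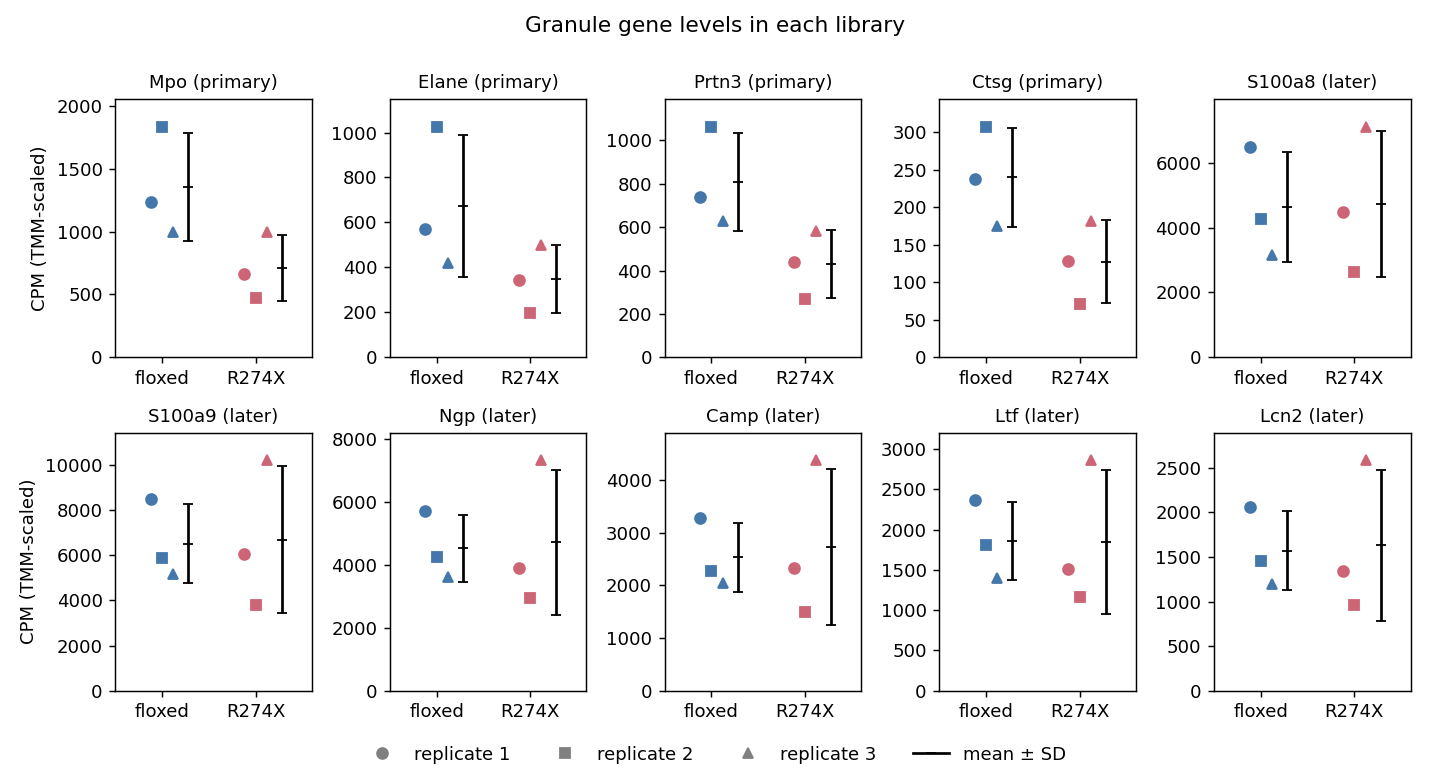
Level of each of the 10 granule genes in each library, in TMM-scaled CPM on a linear axis from 0, with the mean ± SD of each group (n = 3) beside the points. The primary genes sit lower in R274X replicates 1 and 2 than in any floxed library, and in the later genes R274X replicate 3 is the highest and R274X replicate 2 the lowest library.

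Across all 10 genes, 0 were called at an adjusted p under 0.05 by edgeR, where 17.9% of all genes were. An unadjusted p under 0.05 was found for 0 of the 10, and for 4690 of all 14608 genes tested. DESeq2, limma-voom and limma on the deposited FPKM also called 0 of the 10. A p that misses the threshold does not show that the levels were alike: with standard errors of 0.432 to 0.50, changes of the size seen in the primary genes could not be told from 0 in the later ones. The median log2 fold change of the later genes was 0.05, and single values changed sign between scalings. Leaving out 1 library moved both sets. Without R274X replicate 3 the primary genes lay between -1.31 and -1.19 and the later ones between -0.48 and -0.39. Without R274X replicate 2 the ranges were -0.71 to -0.63 and 0.23 to 0.41, and without floxed replicate 2 they were -0.71 to -0.53 and -0.05 to 0.03.

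On a scale that corrects for transcript length, the later genes were among the most abundant transcripts of these LSK libraries. By mean deposited FPKM over the 6 libraries, S100a9 ranked 2 among all genes (12587 FPKM), S100a8 ranked 5 (6717 FPKM), Ngp 9 (3761 FPKM) and Camp 14 (3454 FPKM). Lcn2 (607 FPKM), Ltf (534 FPKM) and Elane (514 FPKM) followed at ranks 126, 148 and 152. Prtn3 (355 FPKM), Mpo (299.5 FPKM) and Ctsg (176 FPKM) came last, at ranks 201, 219 and 360. The ranges over the 6 libraries of Lcn2 (365 to 985 FPKM), Ltf (336 to 828 FPKM) and Elane (199 to 1026 FPKM) overlapped almost wholly, as did those of Prtn3 (154 to 605 FPKM) and Mpo (138 to 528 FPKM).

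The ratio of primary to later transcripts, which does not depend on how libraries are scaled, was lower in every R274X library than in any floxed one. For each 100 counts of the 6 later genes, the 4 primary genes had 9.78, 21.2 and 13.4 counts in floxed replicates 1 to 3 and 8.0, 7.77 and 6.57 counts in R274X replicates 1 to 3. The groups did not overlap, although floxed replicate 1 lay close to R274X replicate 1. The log2 ratio was -2.83 ± 0.562 in the floxed and -3.75 ± 0.153 in the R274X libraries (SD, n = 3 each), a difference of -0.92, or a ratio 1.89-fold lower. As the genes were chosen with earlier results of these data known, the ratio is given with no test.

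Taken apart, the sums behind the ratio did overlap. The primary genes summed to 2779, 4229 and 2219 CPM in the floxed and 1573, 1008 and 2265 CPM in the R274X libraries. The later genes summed to 28427, 19928 and 16568 CPM against 19650, 12970 and 34464 CPM, or 1.22% to 3.34% of all counts. R274X replicate 3 had the highest later sum and also the highest primary sum of its group, and floxed replicate 2 had the highest primary sum with a later sum in the middle of the range. Without floxed replicate 2 the difference of the log2 ratio was -0.62 (1.54-fold) and without floxed replicate 1 it was -1.18 (2.27-fold), while leaving out any of the other 4 libraries gave -0.98 to -0.83.

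**Figure D2:**
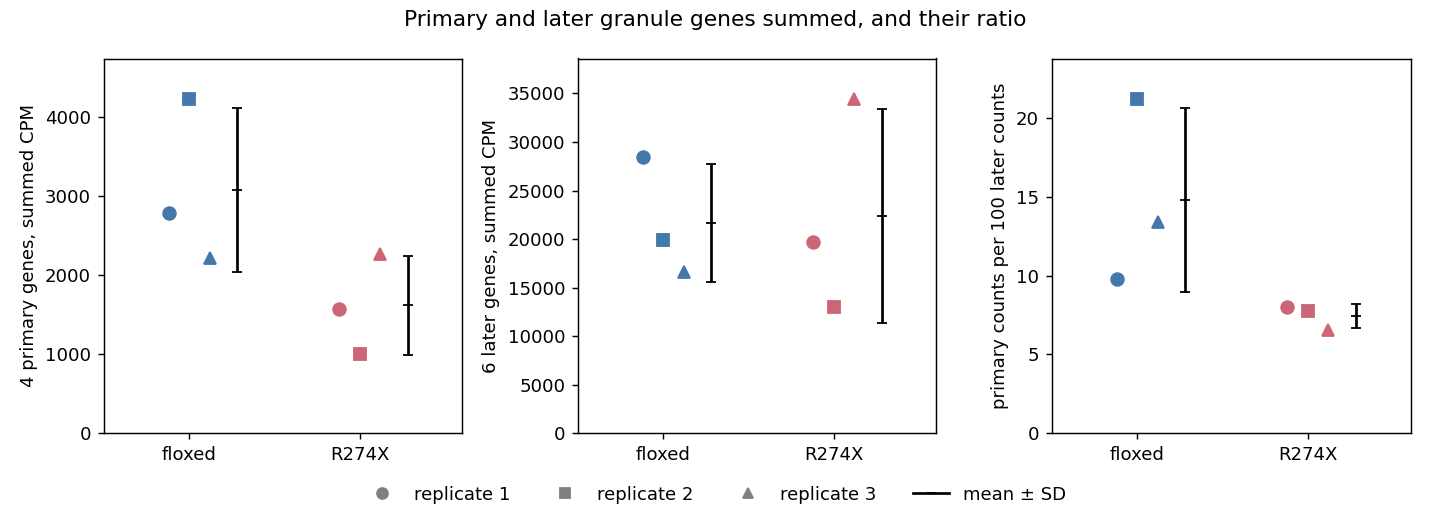
Summed CPM of the 4 primary genes, summed CPM of the 6 later genes, and primary counts per 100 later counts in each library, on linear axes from 0 with mean ± SD (n = 3). The summed levels overlap between the groups, while the ratio runs from 9.78 to 21.2 in floxed and from 6.57 to 8.0 in R274X libraries.

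The lower ratio was seen for each primary gene. The 4 genes kept almost fixed proportions and were divided by the same later counts, so their ratios restate the summed one. Per 100 later counts, Mpo had 4.34, 9.21 and 6.02 counts in the floxed and 3.36, 3.65 and 2.90 counts in the R274X libraries. Elane had 2.01, 5.14 and 2.53 against 1.75, 1.52 and 1.45 counts, and Prtn3 2.59, 5.33 and 3.78 against 2.24, 2.06 and 1.69 counts. For Ctsg the values were 0.837, 1.54 and 1.06 against 0.655, 0.547 and 0.527 counts. None of the 4 overlapped between the groups. Among all genes tested 1.92% were lower without overlap when divided by the same later counts. Division by the later counts adds their spread to genes that do not share it, so this share does not measure how rare the result is. In CPM, 18.3% of all genes tested were lower without overlap, and of the 4 only Prtn3 was.

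Within each set the genes kept almost fixed proportions from library to library. The SD of the log2 count ratio over the 6 libraries was 0.0883 to 0.182 for the 6 pairs of primary genes and 0.0520 to 0.169 for the 15 pairs of later genes. For the 24 pairs of 1 primary and 1 later gene it was 0.572 to 0.710. In all 24 mixed pairs the ratio was lower in every R274X library than in any floxed one, by 0.86 to 0.99 on the log2 scale. In the 21 pairs within a set the groups overlapped each time, with differences of -0.05 to 0.09. All pairs share the same 6 libraries and the mixed ones share genes, so they are not independent. The 24 mixed pairs thus restate the difference in the summed ratio and add no further evidence for it. No share over pairs of other genes was computed.

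**Figure D3:**
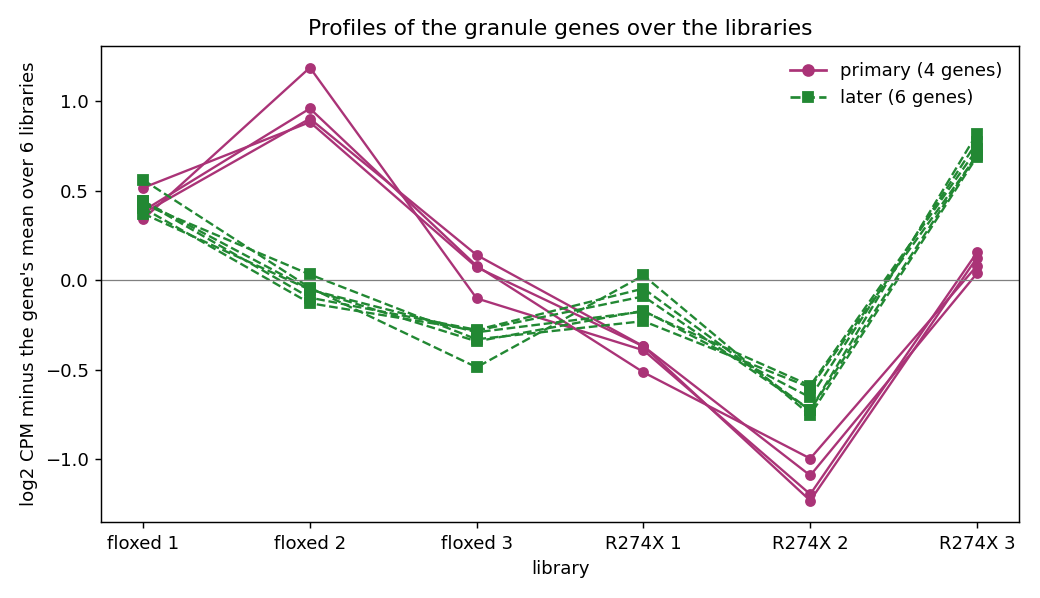
log2 CPM of each granule gene minus its own mean over the 6 libraries, with a line joining the values of 1 gene; the libraries have no order within a group. The 4 primary genes peak in floxed replicate 2, the 6 later genes peak in R274X replicate 3, and both sets are lowest in R274X replicate 2.

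**Figure D4:**
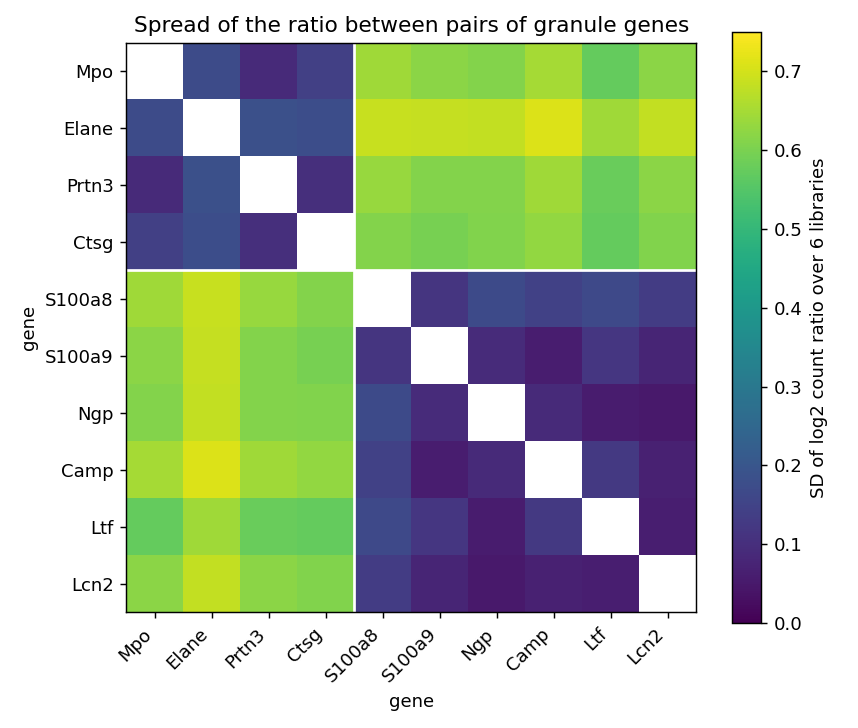
SD over the 6 libraries of the log2 count ratio for each pair of granule genes, with white lines between the 4 primary and the 6 later genes. Pairs within a set stay at or below 0.182, and pairs across the sets run from 0.572 to 0.710.

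The sets are not single gene clusters. On GRCm38, Prtn3 (chromosome 10, 79874476 to 79883174) and Elane (chromosome 10, 79886247 to 79888215) are neighbours on the plus strand, 3072 bases apart. Mpo lies on chromosome 11 (87793581 to 87804413, plus strand) and Ctsg on chromosome 14 (56099881 to 56102574, minus strand). S100a8 and S100a9 lie 22596 bases apart on chromosome 3 (90668978 to 90670035 and 90692632 to 90695721). Camp (109847379 to 109849617), Ngp (110419747 to 110423012) and Ltf (111019271 to 111042767) lie along chromosome 9 with 570129 and 596258 bases between them, and Lcn2 is on chromosome 2 (32384633 to 32388252). Genes on different chromosomes thus shared a profile.

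Promoter sequences of 6 members are shown because the primary and the later genes formed separate profiles over the libraries. RefSeq windows (build GRCm38.p6) from 250 bases before to 50 bases after the start were found for all 10 members, read 5′ to 3′ on the gene's strand. The RefSeq start of Prtn3 lies inside the longer GENCODE gene. Capitals mark matches, on either strand, to TTGCNNAA (a C/EBP-type motif), GAGGAA (PU.1), TGTGGT (RUNX) or AACGG (MYB), factors known to act on granule genes in mouse myeloid cells. Positions below give the first base of a match relative to the start. The windows printed are chr11:87793534-87793833 (plus) for Mpo, chr10:79886062-79886361 (plus) for Elane, chr10:79879417-79879716 (plus) for Prtn3, chr14:56102525-56102824 (minus) for Ctsg, chr9:110419558-110419857 (plus) for Ngp and chr9:111019042-111019341 (plus) for Ltf.
Mpo: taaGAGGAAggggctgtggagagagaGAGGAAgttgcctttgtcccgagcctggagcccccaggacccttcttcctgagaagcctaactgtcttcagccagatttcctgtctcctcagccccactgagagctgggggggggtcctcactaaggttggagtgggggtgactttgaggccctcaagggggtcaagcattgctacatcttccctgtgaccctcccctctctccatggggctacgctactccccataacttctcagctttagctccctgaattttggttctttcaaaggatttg
Elane: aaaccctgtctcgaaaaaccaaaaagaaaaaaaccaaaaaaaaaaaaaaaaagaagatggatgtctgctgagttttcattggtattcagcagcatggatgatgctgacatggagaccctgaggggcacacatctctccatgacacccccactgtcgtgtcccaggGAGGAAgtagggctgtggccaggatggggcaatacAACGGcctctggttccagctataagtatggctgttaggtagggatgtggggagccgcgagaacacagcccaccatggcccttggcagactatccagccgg
Prtn3: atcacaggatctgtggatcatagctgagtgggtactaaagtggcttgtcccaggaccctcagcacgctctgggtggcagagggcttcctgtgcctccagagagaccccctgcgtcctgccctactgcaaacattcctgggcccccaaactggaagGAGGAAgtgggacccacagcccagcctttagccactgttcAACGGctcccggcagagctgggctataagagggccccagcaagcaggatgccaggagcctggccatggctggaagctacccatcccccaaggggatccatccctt
Ctsg: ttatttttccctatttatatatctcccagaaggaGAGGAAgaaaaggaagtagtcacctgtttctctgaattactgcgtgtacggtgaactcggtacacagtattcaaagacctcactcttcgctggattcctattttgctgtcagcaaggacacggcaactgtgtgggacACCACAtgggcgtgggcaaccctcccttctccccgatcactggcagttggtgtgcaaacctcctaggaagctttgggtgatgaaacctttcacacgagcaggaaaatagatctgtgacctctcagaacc
Ngp: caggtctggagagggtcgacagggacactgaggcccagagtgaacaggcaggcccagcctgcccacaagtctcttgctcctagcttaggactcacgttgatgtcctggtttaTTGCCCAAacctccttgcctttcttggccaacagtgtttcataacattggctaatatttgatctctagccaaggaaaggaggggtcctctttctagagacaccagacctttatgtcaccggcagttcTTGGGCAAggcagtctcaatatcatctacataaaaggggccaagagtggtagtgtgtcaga
Ltf: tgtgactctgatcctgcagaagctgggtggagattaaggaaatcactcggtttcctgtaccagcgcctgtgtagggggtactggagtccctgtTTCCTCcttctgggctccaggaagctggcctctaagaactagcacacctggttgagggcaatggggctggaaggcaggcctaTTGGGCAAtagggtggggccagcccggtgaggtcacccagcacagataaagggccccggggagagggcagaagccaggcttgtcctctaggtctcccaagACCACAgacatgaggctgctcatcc

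The letters TTGCNNAA were in 0 of the 4 primary and 4 of the 6 later windows (S100a9, Ngp, Ltf and Lcn2), against 10.8% of 32817 RefSeq promoter windows. Ngp held a pair of matches, at -138 and -11, and Ltf held one at -75. These are the only later windows printed. The windows of S100a8 and Camp, which are not printed, did not hold TTGCNNAA, and that of Camp held no match to any of the motifs. GAGGAA was in all 4 primary windows and 3 later ones, against 28.3% of all windows. AACGG was in 2 primary windows and 0 later ones (17.4% of all), and the neighbours Elane and Prtn3 held it at -50 and -55 with GAGGAA further out at -85 and -95. TGTGGT was in 1 primary and 2 later windows (16.8% of all). Matches of different motifs did not overlap in these 10 windows. A match of letters is a description and not a shown binding site, and a window without one may still bind the factor.

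Other genes of the early granule stage were mixed. Of 12 listed, 11 were tested, 1 rose, 1 fell and 9 were not called, with a median log2 fold change of -0.27 against -0.02 over all genes. That share of calls is near the 17.9% of all genes. The number that fell was 4 without R274X replicate 3, with DESeq2 or with no count filter, and 2 without floxed replicate 3, with limma-voom or with upper-quartile scaling. Ctsc encodes cathepsin C, the dipeptidase that activates elastase, proteinase 3 and cathepsin G by trimming their ends, and it rose 2.21-fold. Its levels were 70.9, 62.6 and 74.6 CPM in the floxed and 182.0, 154 and 124 CPM in the R274X libraries (edgeR adjusted p = 0.00158), so it was higher in all 3 R274X libraries. Nkg7, a granule membrane protein of cytotoxic cells that is also transcribed in myeloid progenitors, fell 1.71-fold from 147, 165 and 141 CPM to 88.5, 74.99 and 101.6 CPM (adjusted p = 0.00121). Prss57, a serine protease of primary granules, was not called at 49.9, 51.2 and 30.6 against 27.4, 21.9 and 33.1 CPM (log2 fold change -0.68, adjusted p = 0.144). Srgn, the proteoglycan serglycin that packs granule proteases, stood at -0.22 on the log2 scale (adjusted p = 0.0565).

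Most macrophage and monocyte markers had higher means in the R274X libraries, as did Ctsc, a gene that macrophages also transcribe. Of 12 listed markers 6 rose and none fell, with a median log2 fold change of 1.71, and 1 had a log2 fold change below 0. Of all 14608 genes tested, 1469 rose. The list's summed level was 744 to 959 CPM in floxed and 1990 to 3248 CPM in R274X libraries, with none of the 12 at 0 counts. Cd68, a lysosomal glycoprotein, rose 2.64-fold and Adgre1, the macrophage marker F4/80, 4.04-fold, while Ly6c2 rose 2.32-fold and Csf1r 1.73-fold. The number that rose was 1 to 5 when a library was left out. Their part in the Ctsc result was not tested.

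Of 12 further genes of specific granules and their membranes 0 were called by edgeR and 1 had an unadjusted p under 0.05 (median log2 fold change -0.05). Over all 14608 genes tested, 17.9% were called and 4690 had an unadjusted p under 0.05. With DESeq2, with no count filter, with immunoglobulin genes removed or without R274X replicate 2, 1 of the 12 rose, and without R274X replicate 3, 1 fell. The smallest p belonged to Cyba, a subunit of the NADPH oxidase, with a log2 fold change of 0.37 (edgeR adjusted p = 0.0538), and its partner Cybb stood at 0.16 (adjusted p = 0.769). Mmp8, neutrophil collagenase, measured 176, 155 and 83.6 CPM in the floxed and 155, 126 and 223 CPM in the R274X libraries. Olfm4, a specific granule glycoprotein, measured 18.2, 14.5 and 14.2 against 8.80, 4.50 and 20.1 CPM. As among the later members, R274X replicate 3 was the highest library for both.

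In the list of gelatinase granule and late neutrophil genes, 2 rose, 1 fell and 14 were not called of 17 tested, with a median of 0.05, a share of calls near the 17.9% of all genes. The number that fell was 3 without R274X replicate 3 and 2 without floxed replicate 1, without R274X replicate 2, with no count filter or with limma on FPKM. The number that rose was 1 without floxed replicate 2, floxed replicate 3 or R274X replicate 1 and with limma on FPKM. Slpi encodes a secreted inhibitor of elastase and cathepsin G, and it rose 3.06-fold, from 100.1, 69.6 and 66.5 CPM in the floxed to 249.7, 237 and 235 CPM in the R274X libraries (edgeR adjusted p = 0.00131). The 3 R274X values lay close together, unlike those of the primary and later members. Fpr1, a receptor for bacterial formyl peptides, rose 1.75-fold (10.7 ± 3.01 to 18.7 ± 3.52 CPM, adjusted p = 0.0262), and was not called under 6 of 16 alternatives, among them without floxed replicate 2 (0.131), floxed replicate 3 (0.0814) or R274X replicate 1 (0.113). Stfa1, a cysteine protease inhibitor of the stefin A cluster, fell 5.003-fold at very low levels (1.57 ± 0.293 to 0.307 ± 0.0376 CPM, adjusted p = 0.00508), and near-identical copies in this cluster make its counts uncertain. Stfa3 of the same cluster stood at -1.22 on the log2 scale (adjusted p = 0.152).

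**Figure D5:**
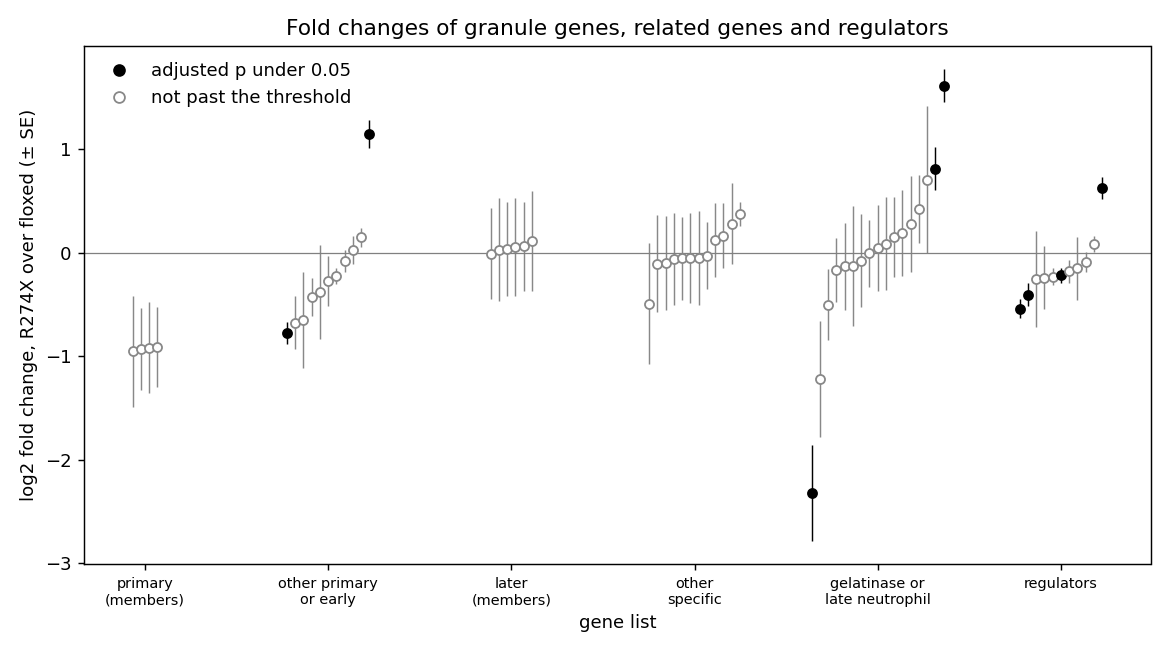
log2 fold change (R274X over floxed, ± SE) of each tested gene in 6 lists, with filled points for an adjusted p under 0.05. The 4 primary members sit between -0.95 and -0.91 and the 6 later members between -0.01 and 0.11, all with standard errors of 0.387 or more.

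Transcription factors that act on granule genes changed by small amounts, in both directions. Of 11 listed regulators 3 fell, 1 rose and 7 were not called, with a median log2 fold change of -0.22. Over all genes tested, 17.9% were called and 7.89% were called as lower. The number that fell was 1 or 2 with any library left out, and 4 with upper-quartile scaling or no count filter. With limma on FPKM it was 1 with the filter and 0 without it. Cebpa, the factor needed for granulocyte-monocyte progenitors to form, fell 1.46-fold, from 88.7, 99.4 and 87.8 CPM to 59.4, 58.3 and 71.6 CPM (edgeR adjusted p = 0.00213), and was not called under 1 of 16 alternatives (adjusted p = 0.0585). Gfi1, a repressor needed for neutrophil maturation, fell 1.33-fold (53.0 ± 7.44 to 40.0 ± 4.34 CPM, adjusted p = 0.0281), but was not called under 6 of 16 alternatives, among them without floxed replicate 2 (0.116) or R274X replicate 1 (0.126). Runx1, a core factor of blood stem and progenitor cells, was called at 1.16-fold lower (adjusted p = 0.0453) and lost the call under 12 of 16 alternatives, with any of the 6 libraries left out among them. Irf8, which directs progenitors to the monocyte and dendritic lineages, rose 1.54-fold from 159 ± 13.6 to 244.8 ± 35.4 CPM (adjusted p = 0.00349), and was not called under 2 of 16 alternatives (adjusted p up to 0.0707).

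Cebpe, a factor of the later granule genes, measured 96.6, 94.5 and 64.3 CPM in the floxed and 61.05, 40.3 and 113 CPM in the R274X libraries and was not called (log2 fold change -0.25, edgeR adjusted p = 0.758). Its highest and lowest libraries were R274X replicates 3 and 2, as for the later granule genes. Spi1, which encodes PU.1, stood at -0.18 on the log2 scale (adjusted p = 0.302) and Myb one of -0.23 (adjusted p = 0.0627).

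Genes with a profile over the 6 libraries close to that of the primary set were Tspoap1, Ms4a3, Tuba8, Rab44 and Itga2b. Likeness was the root mean square distance between log2 CPM values centred on each gene's mean, over 719 genes with a mean of at least 10 CPM and a range of at least 1 on the log2 scale. The distances of these 5 ran from 0.115 to 0.156, against 0.0619 to 0.113 for the 4 members themselves. The members are part of the mean profile, which lowers their own distances. As the 5 genes were picked by this likeness, their lower means in the R274X libraries follow from the choice. Tspoap1, which ends 7653 bases before Mpo on chromosome 11, measured 11.7, 18.2 and 10.8 CPM in the floxed and 6.98, 4.89 and 9.43 CPM in the R274X libraries (log2 fold change -0.93, edgeR adjusted p = 0.0502). Ms4a3, a marker of granulocyte-monocyte progenitors, measured 71.8, 109 and 58.2 against 49.7, 28.6 and 74.5 CPM.

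Closest to the later set were Chil1, I830127L07Rik, Pglyrp1, Xdh, Cd177 and Itgam, at distances of 0.0663 to 0.0989. The 6 members, which are part of the mean profile, had distances of 0.0287 to 0.105. Pglyrp1 encodes a peptidoglycan recognition protein of specific granules and Cd177 a neutrophil surface protein, and Itgam encodes the integrin chain CD11b. Itgam measured 37.3, 26.9 and 20.1 CPM in the floxed and 23.7, 16.7 and 37.9 CPM in the R274X libraries. None of the 6 was called, with log2 fold changes from -0.11 to 0.05. As they were picked by likeness to the later set over the same libraries, this follows from the choice.

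Markers of the gate and of other cells that the samples could hold were measured beside the granule genes. Of all genes tested, 17.9% were called. Stem cell gate markers fell in 8 and rose in 1 of 10 tested, with Kit 1.64-fold and Cd34 1.54-fold lower and Ly6a 1.74-fold higher. The number that fell was 6 to 8 with a library left out. With limma on FPKM it was 6 of 9 at a pseudocount of 1, 4 of 9 at 0.1 and 3 of 10 without the filter. B cell markers rose in 4 of 8 (0 to 6 with a library left out), with a summed level of 317 to 756 CPM in floxed and 1405 to 2878 CPM in R274X libraries. Erythroid markers rose in 3 of 9 tested, at 852 to 1233 and 1897 to 3215 CPM. That number was 1 without floxed replicate 2, R274X replicate 1 or R274X replicate 3, 2 to 4 without each of the others, and 6 with DESeq2. Of 8 eosinophil markers 1 rose and 1 fell (97.9 to 197 and 241 to 274.3 CPM). Without floxed replicate 1, 6 rose and 0 fell, and 4 rose with DESeq2 or no count filter. Of 7 mast cell and basophil markers 1 fell, and 0 fell without floxed replicate 1, R274X replicate 1 or R274X replicate 2. Their summed level was 251, 299 and 193 CPM in the floxed and 184, 141 and 266 CPM in the R274X libraries. The largest part of the floxed replicate 2 sum was Gata2, the marker that fell. Gata2 measured 89.7, 123 and 80.4 CPM in the floxed and 46.0, 40.3 and 59.3 CPM in the R274X libraries. The markers did not share 1 profile: Cpa3 was highest in floxed replicate 2, Fcer1a in floxed replicate 1 and Mcpt8 in R274X replicate 3. None of these markers was at 0 counts in any library. Within the R274X group, R274X replicate 3 had the highest neutrophil levels and the lowest summed B cell and macrophage markers. The floxed group did not show this order: floxed replicate 1 had its highest later granule sum and also its highest macrophage sum. The B cell sum of floxed replicate 1 lay between those of floxed replicates 2 and 3. The part of these cells in the granule gene results was not tested.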

How the data were processed

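RNA-seq libraries of 6 LSK samples were analysed, 3 floxed and 3 R274X by the genotype label, with replicates numbered within a group and not paired. Each library's table holds, per the file headers, the authors' gene counts beside FPKM, over 54532 Ensembl genes. The counts were whole numbers in which no value from 1 to 60 was missing in any library, so they were taken as unscaled. The deposited FPKM values implied library sizes close to median-ratio size factors, so they are scaled between libraries. Per the submitters' processing notes, Bowtie and the build mm8 were used. Counting tool, annotation and strand setting: not given in the sources used here. Ensembl identifiers were matched to symbols (54409 matched, 123 did not, which held at most 0.0475% of counts), and coordinates are those of GENCODE release M21 on GRCm38. Total counts were 15406314 to 18106065 per library, and replicates differed by far more than sampling noise (chi-square per gene at least 12.0).

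The counts were tested across all genes by edgeR's quasi-likelihood test (edgeR 4.0.16, R 4.3.3; TMM scaling, default filter with a minimum count of 10, robust option, Benjamini-Hochberg adjustment, threshold 0.05). The same factors scaled the CPM values. The code was tested on simulated data. Alternatives were DESeq2 1.42.0, limma 3.58.1 with voom, RLE and upper-quartile scaling, no filter, the robust option off, removal of immunoglobulin genes, limma on log2 FPKM after adding 1 or 0.1 (mean FPKM of at least 0.5, or no filter), and fits without each library in turn. Named genes were the 10 members, the 4 smallest p-values of a list and the 6 nearest profiles of each set, of which 1 is not reported here. Genes named outside this rule (Ly6g, Cxcr2, Plppr3, Cebpe, Spi1 and Myb, and those in the closing observations) were chosen after their values were seen. The members and lists were chosen with earlier results of these data known.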

Additional observations from a re-analysis of the deposited data

How the results depend on the processing

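None of the 10 granule genes was called under any of the 16 alternatives, and the 4 primary genes stayed below 0 in all of them. The count of all genes called (2621) was 1377 with limma on log2(FPKM + 1), 991 with a pseudocount of 0.1 and 757 without the FPKM filter. It ran from 1218 to 3295 with 1 library left out. Later genes changed sign near 0, and the cause was not tested. With limma-voom the log2 fold changes were -0.0227 for S100a8, -0.0449 for S100a9, -0.0200 for Ngp and -0.0338 for Lcn2. With limma on FPKM they were -0.0143, -0.0366, -0.0116 and -0.0252 at a pseudocount of 1, with or without the filter, and -0.0143, -0.0366, -0.0117 and -0.0254 at 0.1. With upper-quartile scaling S100a8 stood at -0.0107 and S100a9 at -0.00184. Among the 12 macrophage markers and 8 B cell markers, the numbers that rose over all alternatives were 1 to 11 and 0 to 8. With 1 library left out the ranges were -0.39 to 0.34 for S100a8, -0.40 to 0.32 for S100a9, -0.40 to 0.31 for Ngp, -0.40 to 0.41 for Camp, -0.48 to 0.23 for Ltf and -0.44 to 0.32 for Lcn2. The difference in the log2 ratio of primary to later genes was -0.93 from FPKM, -0.92 from mean log2 CPM, -0.93 against Ngp, Camp, Ltf and Lcn2 alone, and -1.18 to -0.62 with 1 library left out. No paired analysis was possible because the groups share no replicate numbers in the labels. The spread between libraries, not depth, limits these results.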

Other observations

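The nearest tested protein-coding genes on either side of each member, a set defined after the data were seen, did not move as a block. Of 17 such neighbours 2 rose and 2 fell, with a median log2 fold change of 0.01. Over all genes tested, 17.9% were called. Plppr3, which overlaps Prtn3, measured 178, 204 and 157.5 CPM in the floxed and 96.1, 95.6 and 130.5 CPM in the R274X libraries. Its levels did not overlap between the groups, as was so for 18.3% of all genes tested in the same direction. Med16, on the other side of Elane at 6493 bases, measured 59.6, 65.5 and 60.8 against 57.6, 59.8 and 54.2 CPM (log2 fold change -0.11, edgeR adjusted p = 0.35). Ptpn23, before Ngp, fell (log2 fold change -0.51, adjusted p = 0.0356), while Ccrl2, a chemokine receptor-like gene after Ltf, rose (0.34, adjusted p = 0.0475).

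S100a6, a calcium-binding protein gene next to S100a8 and S100a9 that many cell types transcribe, measured 159, 118 and 86.4 CPM in the floxed and 146, 98.7 and 195 CPM in the R274X libraries. As for its neighbours, R274X replicate 3 was the highest library, but floxed replicate 3 and not R274X replicate 2 was the lowest. Mcpt8, a mast cell and basophil protease gene 14608 bases from Ctsg, measured 29.0, 25.5 and 19.9 against 28.1, 23.7 and 36.6 CPM and was not called (log2 fold change 0.25, adjusted p = 0.405), in contrast in sign to Ctsg. This difference in sign was not tested.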
